A study of Homo sapiens with 9 samples.

Results

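XBP1 and SDF2L1 are a transcription factor and a chaperone cofactor of the unfolded protein response of the endoplasmic reticulum (ER). They were described here in EA.hy926 cells exposed to silver nanoparticles. Both were chosen by gene symbol, with their 5 nm minus control differences in log2 intensity, overall and within each replicate number, already known. They are 2 of 14884 genes with a named probe set on the array, each with a single probe set, and both were among the 12155 genes bright enough to be tested. The 9 arrays came from cells given 5 nm silver particles (3 arrays), cells given 100 nm silver particles (3 arrays) and cells with no exposure (3 arrays). All 3 groups were the same unmodified line, and the exposure lasted 6 h near the concentration that kills 50% of cells (LD50). EA.hy926 is an established line made by fusing umbilical vein endothelial cells with A549 lung carcinoma cells, so it is a hybrid tumour line and not a primary endothelium. The mass concentration of each particle was not given in the labels, so the doses of the particle sizes could not be compared.

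Proteins that fold poorly in the ER lumen draw the chaperone BiP away from 3 membrane sensors, IRE1, PERK and ATF6. IRE1 removes an intron from XBP1 mRNA in the cytosol and so permits translation of the active XBP1 factor, while cleaved ATF6 raises XBP1 transcription. XBP1 and ATF6 then induce ER chaperones and ER-associated degradation, whereas PERK acts through ATF4 on genes such as DDIT3. SDF2L1 is an ER-resident protein that works with BiP and the co-chaperone DNAJB11 to keep folding intermediates soluble. Misfolded cytosolic proteins are met by a separate system, in which the factor HSF1 induces HSP70 chaperones and their partners. The array measured total XBP1 mRNA, and its gene-level probe set does not separate the spliced from the unspliced form.

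The upstream sequences of both genes are shown because the ER stress factors act through known elements, and the arrays measure the transcripts below them. Sequences are from RefSeq (GRCh38.p14), 5′ to 3′ on the gene's own strand, with motif matches in capitals. The XBP1 stretch is chr22:28800570-28800819 on the minus strand and the SDF2L1 stretch is chr22:21642052-21642301 on the plus strand, each the 250 bases before the annotated start. The CRELD2 stretch is chr22:49918544-49918582 on the plus strand, and the HYOU1 stretch is chr11:119057264-119057403 on the minus strand. The CALR stretch is chr19:12938374-12938412 on the plus strand. CRELD2 and HYOU1 are given because they are the ER genes set beside SDF2L1, and CALR, the lectin chaperone calreticulin, because it carries the same element as XBP1.
XBP1: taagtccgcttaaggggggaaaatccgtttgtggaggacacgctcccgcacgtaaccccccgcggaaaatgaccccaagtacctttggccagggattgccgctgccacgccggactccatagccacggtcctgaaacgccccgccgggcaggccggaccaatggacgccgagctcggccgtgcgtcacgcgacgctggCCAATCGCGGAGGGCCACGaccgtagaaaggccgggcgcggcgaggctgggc
SDF2L1: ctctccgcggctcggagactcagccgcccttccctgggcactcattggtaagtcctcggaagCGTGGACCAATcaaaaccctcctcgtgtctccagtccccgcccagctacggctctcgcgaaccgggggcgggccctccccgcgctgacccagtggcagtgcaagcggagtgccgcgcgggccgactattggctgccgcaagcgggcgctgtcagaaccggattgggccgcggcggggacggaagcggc
CRELD2: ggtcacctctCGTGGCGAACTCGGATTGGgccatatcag
HYOU1: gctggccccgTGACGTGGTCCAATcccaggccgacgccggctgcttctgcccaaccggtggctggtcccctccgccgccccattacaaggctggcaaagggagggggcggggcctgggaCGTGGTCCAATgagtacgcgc
CALR: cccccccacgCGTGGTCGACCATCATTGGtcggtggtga

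The motifs were searched on both strands of 35116 RefSeq windows of 300 bases (chromosome 8 not used here), from 250 bases before a start site to 50 bases after it. The ER stress response element (ERSE) was searched as CCAAT, then 9 bases of any kind, then CCACG, and was in 27 windows (0.0769%). The variant ERSE-II was searched as ATTGG, then 1 base of any kind, then CCACG, and was in 19 windows (0.0541%), and the UPRE core, TGACGTGG, in 256 windows (0.729%). The first of the 2 XBP1 windows held an ERSE on the gene's strand, 52 to 34 bases before the start, and its second window held none of the motifs. SDF2L1 had an ERSE-II on the opposite strand, 188 to 178 bases before the start. CRELD2 had an ERSE on the opposite strand, 80 to 62 bases before its start. HYOU1 had a pair of ERSE-II matches on the opposite strand, 185 to 175 and 79 to 69 bases before its start, and its UPRE core match overlapped the more distant one. CALR had an ERSE on the opposite strand, 225 to 207 bases before its start. The windows of MANF, SEL1L, SELENOK and SDF2, which are described with the ER genes below, held none of these letters. A match is a description of sequence and was not tested as a binding site.

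**Figure D1:**
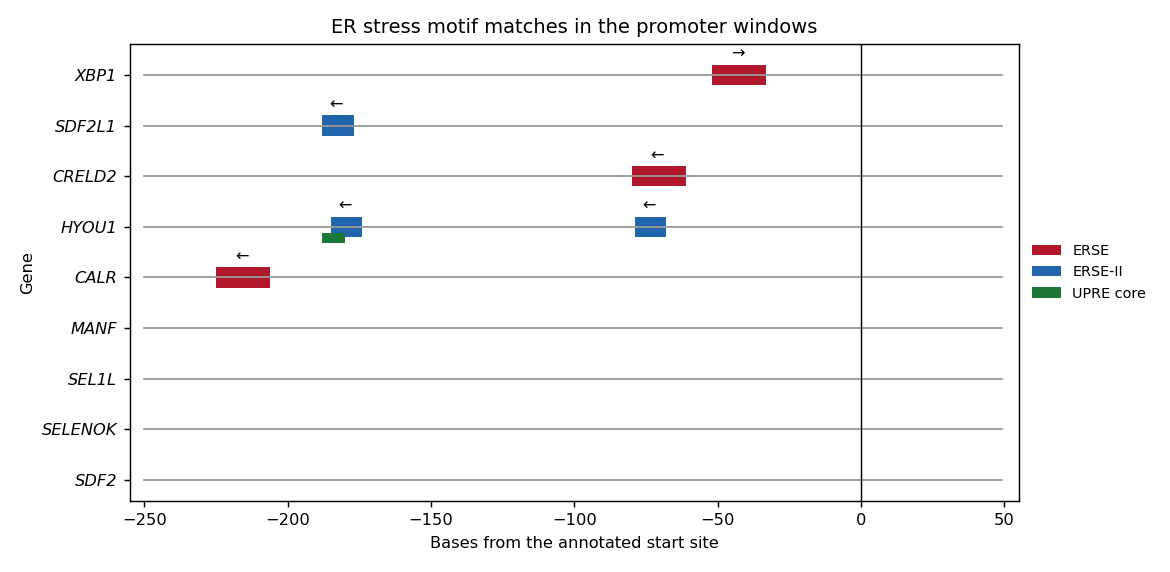
Motif matches in promoter windows of the members and of the genes set beside them, 1 line for each gene (the first window of XBP1), with distance from the annotated start site in bases on the x axis. Colour gives the motif and arrows its strand. XBP1, CRELD2 and CALR each hold an ERSE, SDF2L1 1 ERSE-II and HYOU1 a pair of ERSE-II matches.

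No label says whether the 3 arrays of a group were independent cultures, and the p-values therefore reflect spread among arrays that may be technical. Arrays with the same replicate number lay close together: their deviations from the group means correlated at 0.762 to 0.967 in the 9 same-number pairs, against -0.582 to -0.265 in the 18 other pairs. Deviations within a group sum to 0, so the negative values follow from the positive ones and add no separate evidence of pairing. In same-number pairs, 46.9 to 57.6% of probe sets held exactly the same deposited value, against at most 0.00373% in other pairs. Differences were therefore also taken within each number, and the fit was repeated with the number as a block. With so many equal values, a difference of 0.00 within a number need not mean that a gene did not respond. Median log2 intensities were 5.15 to 5.64 and 10764 to 11944 genes lay at or above log2 5 per array. Of 16 endothelial markers, 12 had a named probe set, and 11 averaged log2 5 or more in every group, while EMCN did not. Their summed log2 level was 102.5 to 108.73 in 5 nm arrays, 105.01 to 110.24 in 100 nm arrays and 105.05 to 110.24 in control arrays, and the median difference of the 11 tested, 5 nm minus control, was -0.15. Of the epithelial markers 9 of 10 averaged log2 5 or more in every group (not ESRP1), with summed log2 levels of 62.76 to 69.25, 63.32 to 69.81 and 63.35 to 69.91 in 5 nm, 100 nm and control arrays. Of 3 measured leukocyte markers 2 averaged log2 5 or more in every group, and CD14 averaged below it. The highest mean among the 3 was 11.8 in 5 nm arrays and 11.82 in 100 nm and in control arrays. Their sums were 22.65 to 24.25, 22.77 to 24.26 and 22.77 to 24.09 in 5 nm, 100 nm and control arrays. The part of these marker levels in the results below was not tested. In this single line, a change in which cells remained and a change in RNA per cell cannot be told apart.

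XBP1 log2 intensities were 10.41, 10.33 and 9.26 in 5 nm arrays 1, 2 and 3, 9.53, 9.01 and 8.54 in 100 nm arrays, and 9.66, 8.96 and 8.64 in control arrays. The 5 nm arrays 1 and 2 lay above all other arrays, but 5 nm array 3 lay below control array 1, so the groups overlapped in level. Within each number the 5 nm array was the highest of the 3. The mean was 10.0 ± 0.64 in 5 nm arrays, 9.03 ± 0.49 in 100 nm arrays and 9.09 ± 0.52 in control arrays (SD, n = 3 each). The 5 nm minus control difference averaged 0.91 on the log2 scale, or 1.88-fold. It was 0.75, 1.36 and 0.62 in numbers 1, 2 and 3 (SD 0.40), which is 1.54 to 2.57-fold. XBP1 has a processed pseudogene elsewhere in the genome, so some of its probe signal is uncertain.

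SDF2L1 log2 intensities were 9.18, 8.58 and 7.47 in 5 nm arrays 1, 2 and 3, 7.67, 6.68 and 6.67 in 100 nm arrays, and 7.48, 6.71 and 6.85 in control arrays. Again the 5 nm array was the highest within each number. The level of 5 nm array 3 was just below that of control array 1 and below 100 nm array 1, so the groups overlapped. The mean was 8.41 ± 0.86 in 5 nm arrays, 7.01 ± 0.57 in 100 nm arrays and 7.01 ± 0.41 in control arrays (SD, n = 3 each). The 5 nm minus control difference averaged 1.40, or 2.63-fold, and was 1.70, 1.87 and 0.63 in numbers 1, 2 and 3 (SD 0.67), which is 1.54 to 3.65-fold. In number 3 both genes differed by nearly the same amount, whereas in numbers 1 and 2 the SDF2L1 difference exceeded that of XBP1.

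**Figure D2:**
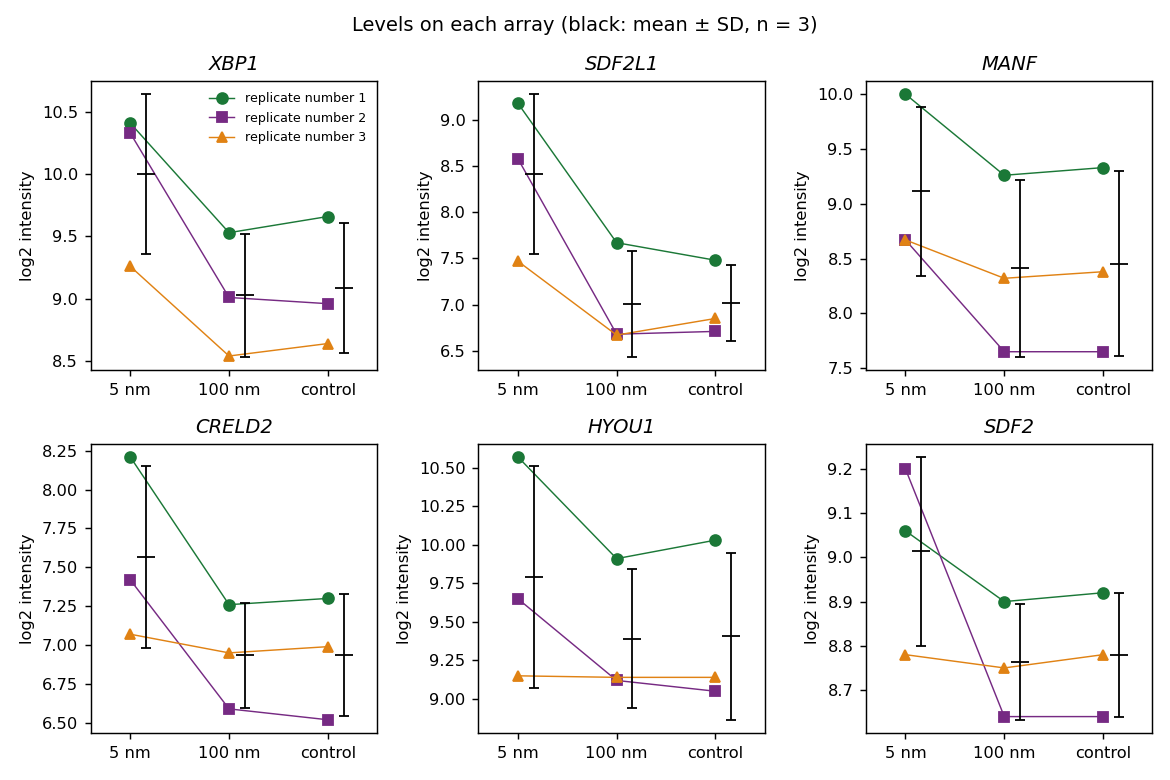
Log2 intensity of the members and of related ER genes in each of the 9 arrays, with 5 nm arrays at the left, then 100 nm and control arrays. Points are arrays, lines join arrays of the same replicate number, and black bars are the mean ± SD of each group (n = 3): XBP1 averaged 10.0 in 5 nm arrays against 9.09 in controls, and SDF2L1 8.41 against 7.01.

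These differences chose the genes and carry no test. For scale, 96 tested genes had a larger 5 nm minus control difference than XBP1 and 35 a larger one than SDF2L1. A total of 99 tested genes (0.814%) were higher by log2 0.5 or more in all 3 numbers, both members among them. Of all tested genes 976 (8.03%) were higher in all 3 numbers and 1626 (13.4%) lower in all 3. All 3 levels above all 3 control levels were found in 171 tested genes (1.41%), and neither member was among them. At least a doubling in every number was seen in 27 tested genes (0.222%), and neither member was among them. Both stayed under a doubling in number 3, and XBP1 also in number 1 (log2 0.75). By limma with Benjamini-Hochberg adjustment over all tested genes, the call set held 9 genes without the block (0.074%, all higher and 0 lower, 0.0%) and 79 with it (0.65%, of which 36 higher, 0.296%, and 43 lower, 0.354%). Neither XBP1 nor SDF2L1 was in either call set, which is a description, since this comparison chose them.

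The 100 nm arrays did not enter the choice of the members, but the control arrays did. For 100 nm minus control hardly any gene passed even before adjustment, as given below. The adjusted p-values of the members there therefore say little. The XBP1 difference, 100 nm minus control, was -0.06, with a 95% interval of -0.92 to 0.79 and an adjusted p of 1.0 in limma. With the replicate number as a block the interval was -0.49 to 0.37, again with an adjusted p of 1.0 in limma. By number it was -0.13, 0.04 and -0.10, higher in 1 of 3 numbers. The SDF2L1 difference rounded to 0.00, with a 95% interval of -0.96 to 0.96, or -0.75 to 0.75 with the block, and an adjusted p of 1.0 in both limma fits. Its values by number were 0.19, -0.03 and -0.17, without a common direction. These intervals do not show that 100 nm cells and controls are alike. Across all genes limma called 0 for 100 nm minus control (0.0%), in either fit, and 0 tested genes had an unadjusted p under 0.05 without the block, against 33 with it. Beside the 100 nm arrays, which share the 5 nm arrays with the comparison above, XBP1 in 5 nm arrays was higher by 0.97 (0.88, 1.32 and 0.72 by number) and SDF2L1 by 1.40 (1.5, 1.90 and 0.80). Limma called 8 genes for 5 nm minus 100 nm (0.0658%) and 75 with the block (0.617%).

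MANF, CRELD2 and HYOU1 are other ER proteins known to be induced by the same response. MANF, a secreted ER protein that binds BiP, had log2 levels of 10.0, 8.67 and 8.67 in 5 nm arrays, 9.26, 7.65 and 8.32 in 100 nm arrays, and 9.33, 7.65 and 8.38 in control arrays. Its 5 nm array was the highest within each number, with 5 nm minus control differences of 0.67, 1.02 and 0.29 (mean 0.66, adjusted p = 1.0 in limma and 0.178 with the block). CRELD2, a cysteine-rich ER protein with disulfide isomerase activity, had log2 levels of 8.21, 7.42 and 7.07 in 5 nm arrays, 7.26, 6.59 and 6.95 in 100 nm arrays, and 7.30, 6.52 and 6.99 in control arrays. The difference was 0.91 in number 1 and 0.90 in number 2 but 0.08 in number 3 (mean 0.63, adjusted p = 1.0 in limma and 0.299 with the block).

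HYOU1, the ER-lumen relative of HSP70 that exchanges nucleotide on BiP, had log2 levels of 10.57, 9.65 and 9.15 in 5 nm arrays, 9.91, 9.12 and 9.14 in 100 nm arrays, and 10.03, 9.05 and 9.14 in control arrays. The difference was 0.54, 0.60 and 0.00 by number (mean 0.38, adjusted p = 1.0 in limma and 0.347 with the block). As stated above, a value of 0.00 within a number need not mean that a gene did not respond. A second, dimmer HYOU1 probe set read 6.58, 5.96 and 6.38 in 5 nm arrays, 6.57, 5.36 and 6.38 in 100 nm arrays, and 6.57, 5.38 and 6.38 in control arrays, and stood above its control mainly in number 2. SDF2, the close relative of SDF2L1, read 9.06, 9.20 and 8.78 in 5 nm arrays, 8.90, 8.64 and 8.75 in 100 nm arrays, and 8.92, 8.64 and 8.78 in control arrays. Its difference averaged 0.23 (0.14, 0.56 and 0.00 by number, adjusted p = 1.0 in limma and 0.428 with the block), and the 5 nm arrays of numbers 1 and 2 were above all controls. Without the 5 nm array of number 3, the blocked limma fit called MANF (0.84, adjusted p = 0.0485), CRELD2 (0.90, adjusted p = 0.0107) and HYOU1 (0.57, adjusted p = 0.0352), and 446 tested genes in all (3.67%), of which 178 were higher (1.46%) and 268 lower (2.2%). That array held the smallest differences of these 3 genes and was singled out with the values seen, so these calls are a description. The same fit called SDF2L1 (1.74) but not XBP1, and as members chosen on this comparison they carry no test. Without any other single array, MANF was not called in the blocked limma fit (adjusted p 0.187 to 0.64). No probe set carried the symbol HERPUD1 or HSPA5 (BiP), and these were not analysed here.

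**Figure D3:**
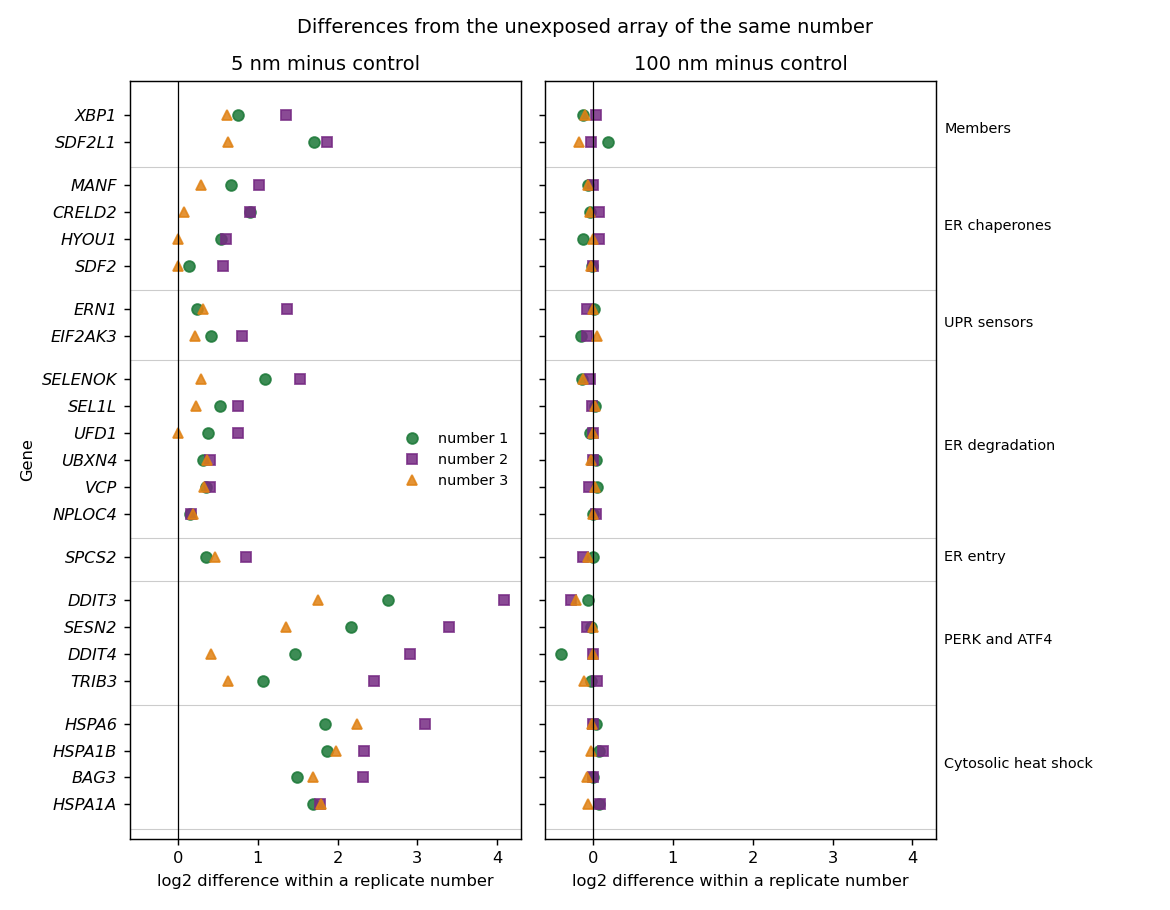
Difference in log2 intensity, 5 nm minus control, within replicate numbers 1, 2 and 3 at the left and 100 nm minus control at the right for the members, other ER genes, PERK and ATF4 branch genes and cytosolic heat shock genes, 1 point for each number. XBP1 (0.75, 1.36 and 0.62) and SDF2L1 (1.70, 1.87 and 0.63) are positive in every number, and HYOU1 and CRELD2 come close to 0 in number 3.

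Of the sensors, ERN1, which encodes IRE1, differed by 0.24, 1.37 and 0.31 by number (mean 0.64, adjusted p = 1.0 in limma and 0.37 with the block). EIF2AK3, which encodes PERK, differed by 0.42, 0.80 and 0.21 (mean 0.48, adjusted p = 1.0 in limma and 0.28 with the block). Both were positive in 3 of 3 numbers and largest in number 2. CREB3, an ER-bound transcription factor, averaged 0.32 and ERN2, the second IRE1 gene, 0.08 (adjusted p = 1.0 each in limma). Among the 9 measured genes for sensors and their processing 6 differences were positive, 3 of them in all numbers, with a median of 0.03. The 14 measured ER chaperones and co-chaperones, SDF2L1 included, had 13 positive differences, 9 of them in all numbers, and a median of 0.11. The 10 disulfide enzymes had 7 positive differences and a median of 0.00, but only 1 positive after median centring and 3 after quantile normalization. The largest were ERO1B, an ER oxidase (0.15), TMX1, a membrane thioredoxin (-0.15), PRDX4, an ER peroxiredoxin (-0.07), and ERP44, a thiol retention factor (0.01, and -0.01 after median centring), each with an adjusted p of 1.0 in limma.

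ER-associated degradation returns misfolded proteins to the cytosol for the proteasome, and 13 of its 16 measured genes had positive differences (median 0.14, 6 positive in all numbers). SELENOK, a selenoprotein of the ER membrane, differed by 1.09, 1.53 and 0.29 (mean 0.97, adjusted p = 0.829 in limma and 0.242 with the block), and its 5 nm arrays lay above all controls. SEL1L, the adaptor of the HRD1 ubiquitin ligase, differed by 0.53, 0.75 and 0.23 (mean 0.50, adjusted p = 0.18 in limma with the block). Of the ER lists 3 genes passed with the block, UBXN4, VCP and NPLOC4. UBXN4, which anchors the segregase at the ER, rose by 0.36 (0.32, 0.40 and 0.37 by number, adjusted p = 0.0285 in limma with the block and 1.0 without). VCP, the segregase itself, rose by 0.36 (0.35, 0.40 and 0.33, adjusted p = 0.0426 with the block and 1.0 without, in limma). NPLOC4, a VCP cofactor, rose by 0.17 (0.15, 0.17 and 0.19, adjusted p = 0.0285 with the block and 1.0 without, in limma). UFD1, the other VCP cofactor, differed by 0.38, 0.75 and 0.00 (mean 0.37, adjusted p = 0.36 in limma with the block). The differences of UBXN4, VCP and NPLOC4 were smaller than those of XBP1 and SDF2L1 but varied less between numbers. Their blocked p-values rest on spread within numbers, and how far the many equal values lower that spread was not tested. On only the 2 groups compared, the blocked limma fit called 0 genes of the ER lists.

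Genes of ER entry and early secretion had 14 of 17 differences positive and a median of 0.05. SPCS2, a signal peptidase subunit, had 5 nm levels above all control levels, with differences of 0.35, 0.85 and 0.47 (mean 0.55, adjusted p = 1.0 in limma and 0.183 with the block). ARFGAP3, a Golgi vesicle coat regulator, averaged 0.14, SEC61B, a translocon subunit, 0.13, and SRP19, a signal recognition particle protein, 0.13. All 5 ER lists held 66 tested genes of 104 listed, with XBP1 in none of them. Differences were positive in 53 and negative in 11, positive in all numbers in 23 and negative in all numbers in 3, and the median was 0.06, against 0.00 over all tested genes. The split of positive to negative was 40 to 26 after median centring and 44 to 22 after quantile normalization of the 9 arrays, so the small differences depend on scaling. In limma 0 of 66 passed without the block (4 at an unadjusted p under 0.05) and 3 with it (19 unadjusted). Of all tested genes 0.074% passed without the block (201 unadjusted, 1.65%) and 0.65% with it (1739 of 12155 unadjusted). The blocked count was 0 without any single control or 100 nm array, and 1, 4 and 12 without 5 nm array 1, 2 or 3. A difference of 0.5 or more was found in 6, 13 and 1 of the 66 in numbers 1, 2 and 3, against 1.78%, 5.5% and 1.52% of all tested genes. The 1 gene in number 3 was SDF2L1. In 100 nm arrays the medians of the 5 ER lists lay between -0.002 and 0.003, and 0 genes passed in limma in either fit, with 0 at an unadjusted p under 0.05.

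The ATF4 branch showed larger differences. Of 13 tested genes of the PERK and ATF4 list, the difference was positive in 12, for 9 of these in every number, with a median of 0.64, and 0 passed in limma in either fit, with 7 at an unadjusted p under 0.05 in each, against 201 of all 12155 tested genes without the block and 1739 with it. DDIT3, the proapoptotic factor CHOP, differed by 2.63, 4.09 and 1.76 (mean 2.83, adjusted p = 0.266 in limma and 0.133 with the block), and only 5 tested genes had a larger mean difference. SESN2, a stress-inducible regulator of mTORC1, differed by 2.17, 3.39 and 1.35 (mean 2.30, adjusted p = 0.0603 in limma and 0.146 with the block). Leaving out 1 array from the unblocked limma fit gave it an adjusted p from 0.02, without 5 nm array 3, to 0.325. TRIB3, a pseudokinase induced by CHOP, differed by 1.07, 2.46 and 0.63 (mean 1.39, adjusted p = 0.542 in limma and 0.258 with the block). DDIT4, a stress-induced inhibitor of mTORC1, differed by 1.47, 2.91 and 0.41 (mean 1.59, adjusted p = 1.0 in limma and 0.331 with the block).

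The cytosolic heat shock genes, given for comparison with the ER lists, had a higher median difference. Of 13 tested genes on the cytosolic heat shock list 12 had positive differences, all of them in every number, with a median of 1.23. The list also holds HSPD1, a mitochondrial chaperone. HSPA6, an inducible HSP70, rose by 2.39 (1.84, 3.10 and 2.24 by number, adjusted p = 0.00555 in limma and 0.0671 with the block). BAG3, an HSP70 co-chaperone, rose by 1.83 (1.49, 2.32 and 1.69, adjusted p = 0.0453 in limma and 0.0514 with the block). HSPA1A and HSPA1B, near-identical HSP70 genes whose probes may share signal, rose by 1.75 and 2.06 with the block (adjusted p = 0.00271 and 0.0173 in limma, 0.0603 and 0.0739 without it). The HSPA1A difference was 1.69, 1.78 and 1.79 by number, so it was level across numbers where SDF2L1 was not. Without the block 2 of the 13 passed, against 0.074% of all tested genes, and with it another 2, HSPA1A and HSPA1B, against 0.65%. Leaving out 1 array gave 1 to 3 calls without the block and 0 to 5 with it, 0 without control array 3, and HSPA6 remained called in every such fit without the block. In 100 nm arrays 0 of the 13 passed in limma in either fit, with 0 at an unadjusted p under 0.05.

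Among genes chosen by their differences in numbers 1 and 2, number 3 gave a smaller share for the ER genes than for the cytosolic ones. For genes with a difference of 0.5 or more in both numbers 1 and 2, the number 3 difference was expressed as a percentage of the mean of the other 2. It was 58.6% for XBP1 and 35.1% for SDF2L1. For MANF it was 34.6%, for SEL1L 35.6%, for SELENOK 21.8%, for CRELD2 8.5% and for HYOU1 0.2%. The 6 PERK and ATF4 genes ran over 18.5 to 52.4% (median 38.7%), with DDIT3 at 52.4%, while the 7 cytosolic heat shock genes ran over 70.6 to 103.2% (median 88.9%). Over all 186 such genes the median was 50.7%, and 118 of them (63.4%) had a smaller share than XBP1 and 50 (26.9%) a smaller share than SDF2L1. The XBP1 share lay between the PERK and cytosolic ranges, and that of SDF2L1 within the PERK range. Both shares come from differences already known when the members were chosen, so their positions are only a description. Choosing genes by numbers 1 and 2 by itself lowers the number 3 share. It does so more for differences near the cut, as for HYOU1 (0.54 and 0.60), than for large ones. The shares of gene groups with small and large differences are therefore not like for like, and the difference between the groups was not tested.

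**Figure D4:**
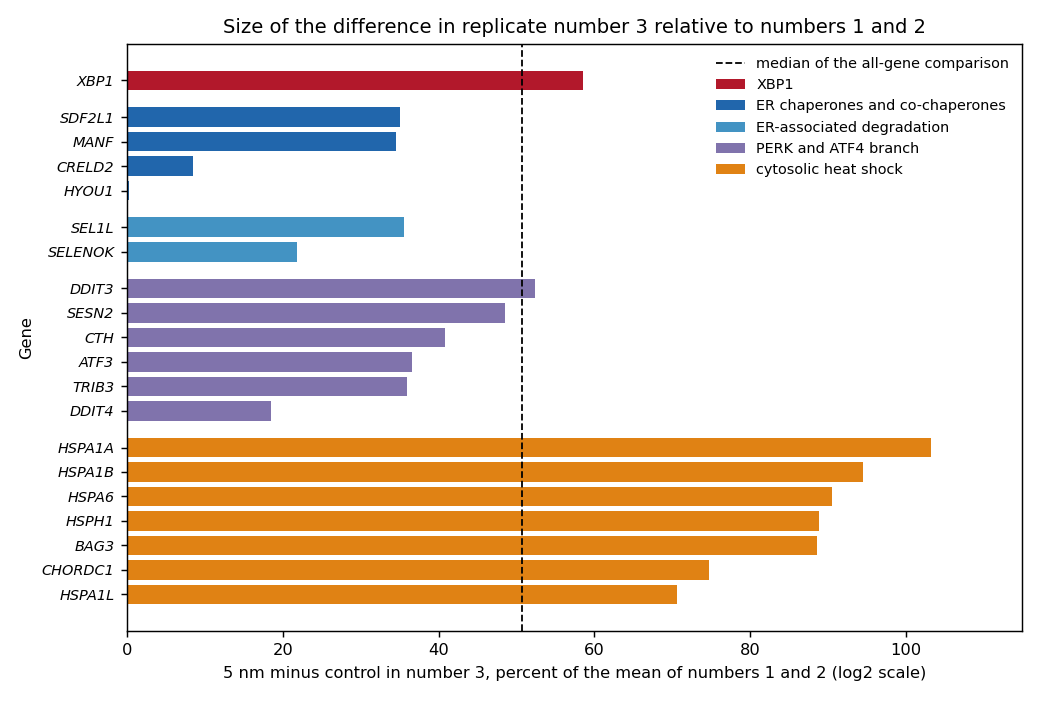
The 5 nm minus control difference of replicate number 3 as a percentage of the mean difference of numbers 1 and 2, 1 bar for each gene with a difference of log2 0.5 or more in both numbers, coloured by gene group, with the median of all such genes (50.7%) as a dashed line. Cytosolic heat shock genes lie at 70.6 to 103.2%, PERK and ATF4 genes at 18.5 to 52.4%, XBP1 at 58.6% and SDF2L1 at 35.1%.

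Patterns over the 9 arrays were compared after each number's mean was removed from its 3 arrays, as a description of arrays that share a number and 3 groups. The genes closest to XBP1 by Pearson correlation were ELOVL5, a fatty acid elongase of the ER (0.9975), GOLT1B, a Golgi transport protein (0.9975), FNIP1, a folliculin partner (0.9974), and SPX and SWAP70 (0.997 each). Their mean differences, 5 nm minus control, were 0.55, 0.42, 0.27, 0.42 and 0.22, all smaller than that of XBP1. DDIT3 was at 0.9951, MANF at 0.9874, SDF2L1 at 0.9728 (rank 209), HSPA1A at 0.9487 (rank 397), CRELD2 at 0.9126, SDF2 at 0.89 and HYOU1 at 0.8845. So many tested genes correlated this strongly with XBP1 that the order does not set ER genes apart from cytosolic ones. The closest to SDF2L1 were VGLL3, a transcription cofactor (0.9994), OSBP, an oxysterol binding protein (0.9973), TALDO1, a pentose phosphate enzyme (0.9967), MED13L, a Mediator subunit (0.9962), and KDM7A, a histone demethylase (0.9958). MANF was at 0.9892, DDIT3 at 0.9843, XBP1 at 0.9728 (rank 119), CRELD2 at 0.9668, HYOU1 at 0.9327, HSPA1A at 0.9293 (rank 486) and SDF2 at 0.8694. Of all these, KDM7A alone exceeded the SDF2L1 difference among its 5 closest genes, with a mean of 2.11 (2.26, 3.10 and 0.98 by number).

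The elements shown in the XBP1 and SDF2L1 promoters were also looked up among tested genes. Of 9178 tested genes with a promoter window, 26 held an ERSE or an ERSE-II. Their median difference, 5 nm minus control, was 0.05 (range -0.11 to 1.40), with 8 higher in all 3 numbers and 0 lower in all 3, against 8.03% and 13.4% of all tested genes. Without XBP1 and SDF2L1, 24 genes were left, with a median of 0.03 and 6 higher in all numbers. Besides XBP1 the ERSE genes included SERP1, a stabiliser of newly made membrane proteins (0.34, with 0.37, 0.37 and 0.27 by number), and the chaperones CANX (0.09) and CALR (0.07). CALR therefore shared the ERSE with XBP1 but not the size of its difference. The heat shock element was searched as GAA, TTC and GAA with 2 bases of any kind between neighbours, and was in 172 windows (0.49%). It was found in 0 of 58 ER genes with a window and in 3 of 12 heat shock genes, HSPA6, CHORDC1 and HSPD1, against 0.567% of tested genes. At so low a share, 0 of 58 says nothing particular about ER genes. The windows of HSPA1A, HSPA1B, HSPH1 and BAG3 held none of the motifs searched. The CARE motif of ATF4 targets, TGATGNAA, was in 1270 windows (3.62%).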

How the data were processed

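Total RNA (300 ng) from 9 samples was labelled and hybridised to Affymetrix whole-transcript arrays, per the labels. The authors deposited log2 intensity per probe set, and the submitters' processing notes name RMA and Affymetrix Expression Console 1.3.1. A genome build for the array design was not given in the sources used here. The equal values within a replicate number point to a normalization run on each number's 3 arrays, which no label records.

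Of 53617 probe sets, 16098 had a single symbol, all matched by Entrez ID, and 37519 had none here. Each gene was represented by its probe set with the highest mean (779 of 14884 genes had several). Genes at log2 5 or more on at least 3 arrays were tested with limma 3.58.1 in R 4.3.3, on all 9 arrays with 3 group means (6 residual degrees of freedom), with Benjamini-Hochberg adjustment at 0.05. The number of arrays limits the precision. The replicate numbers paired the arrays in the check given above, so a second fit, blocked on that number (4 residual degrees of freedom), is printed where it changes a call. Promoters were RefSeq windows of GRCh38.p14.

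The members and gene lists were chosen with earlier results of these data known. Genes were named as members, as ER genes set beside them, as list genes with the largest differences, as list genes called, or as the 5 most correlated with a member. The genes named for a promoter motif were picked with their values seen. The fit was tested on simulated data. Alternatives were median centring, quantile normalization, other filters, trend and robust options, the groups compared alone, the block, and leaving out arrays.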

Additional observations from a re-analysis of the deposited data

How the results depend on the processing

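The XBP1 and SDF2L1 differences, 5 nm minus control, were positive in all 36 alternatives, at 0.685 to 1.281 for XBP1 and 1.014 to 1.865 for SDF2L1. For 100 nm minus control, leaving out arrays gave -0.314 to 0.224 for XBP1 and -0.334 to 0.233 for SDF2L1, and median centring gave SDF2L1 0.001, each without a call. Alternatives that combine the block with another choice, or leave out all arrays of a number, were added after seeing the data. Against 9 calls for 5 nm minus control, the replicate block gave 79, median centring 4, quantile normalization 19 and a floor of log2 6 gave 15. The block gave 254 with quantile normalization, 82 with limma-trend and 0 on only the 2 groups compared. Against 8 calls for 5 nm minus 100 nm, the same alternatives gave 75, 4, 17 and 15, then 249, 77 and 0 for the combinations. Against 0 calls in the ER lists, the block gave 3, with quantile normalization 4, with limma-trend 3 and on only the 2 groups compared 0. Against 2 calls in the cytosolic heat shock list, the fit on only the groups compared, median centring, no filter and robust estimation each gave 1. A floor of log2 6 and limma-trend gave 4 each and quantile normalization 5, the block with quantile normalization gave 6 and the block on only the 2 groups compared 0. Leaving out arrays, with or without the block, gave 0 to 446 calls for 5 nm minus control, 0 to 1 for 100 nm minus control and 0 to 449 for 5 nm minus 100 nm. It gave 0 to 12 in the ER lists and 0 to 5 in the heat shock list, and without all 3 arrays of any number the unblocked fit called 0. ERP44 was -0.013 after median centring and -0.047 after quantile normalization, with or without the block.

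Among single genes, 5 nm minus control, leaving out arrays turned the direction of these, over -0.011 to 0.703 for HYOU1, -0.152 to 0.325 for ERN2, -0.333 to 0.005 for TMX1, -0.238 to 0.543 for ERO1B, -0.325 to 0.199 for PRDX4 and -0.125 to 0.137 for ERP44. It did so over -0.085 to 0.402 for ARFGAP3, -0.088 to 0.344 for SEC61B and -0.173 to 0.497 for SRP19. The cause was not tested. Over all alternatives, named genes other than the members kept direction and call in 1312 cases, gained a call in 61, lost one in 44 and turned in 22. Among named genes that were tested, the replicate block ended the calls of HSPA6 and BAG3, added those of HSPA1A, HSPA1B, UBXN4, VCP and NPLOC4, and changed no other call. With 3 arrays a group the unblocked intervals were wide, as for XBP1 in 100 nm minus control (-0.92 to 0.79), and probe sets near log2 5 carry little signal over background.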
